A study of Homo sapiens with 21 samples.

Results

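The genes described here are 33 members of the NF-kB, cytokine and STAT3 pathways, out of 18132 genes named on the array. They were looked up by symbol in the array's annotation, from a list chosen with earlier results of these data known. Shares of called members set beside all genes therefore describe this list and are no independent test. The members comprise the 5 REL subunits of NF-kB, 7 inhibitors and feedback genes, 7 chemokines, 7 cytokines, 3 other NF-kB target genes and 4 genes of the STAT3 arm. RNA was measured on 21 one-colour 3' expression arrays from 4 established human breast cancer cell lines. MDA-MB-468 and BT-549 are triple-negative breast cancer (TNBC) lines, ZR-75-1 is an oestrogen receptor positive (ER+) line, and T47D is labelled ER+ and progesterone receptor positive. Each line was exposed for 6 hours to the solvent DMSO, to 50 nM or to 250 nM THZ1, which binds covalently to the kinase CDK7, a part of the transcription factor TFIIH that phosphorylates RNA polymerase II. BT-549 had 1 array per dose and the other lines had 2. The study asks how far TNBC cells depend on CDK7 for transcription. Each line is a single cultured line with no added genetic change or cytokine stimulus in the labels, so the levels are those of unstimulated cultures in serum-supplemented medium.

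NF-kB dimers are built from the REL subunits and are held in the cytoplasm by inhibitor proteins such as IkB-alpha, the product of NFKBIA. When receptors for TNF, interleukin 1 and related ligands signal, the IKK kinases mark the inhibitors for destruction, the dimers enter the nucleus, and they switch on chemokines, cytokines and their own inhibitors, which closes a negative feedback loop. STAT3 is activated through JAK kinases by cytokines of the interleukin 6 family, which share the receptor chain encoded by IL6ST, and SOCS proteins end that signal. Many transcripts of NF-kB targets are short-lived, so their level follows transcription within hours.

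The promoters of 26 of the 33 members have an entry in the RefSeq promoter table for GRCh38.p14, which runs from 250 bases before to 50 bases after each annotated start. 14 of these 26 genes (53.8%) held a match to the kappaB decamer, the consensus site of NF-kB dimers, searched on both strands, against 13.3% of the 27305 genes in the table and 11.3% of its 35116 promoters. The STAT element TTCNNNGAA, searched on both strands, was in 4 of the 26 (15.4%), against 9.38% of all genes. The TATA sequence TATAAA on the gene's strand was in 6 of the 26 (23.1%), against 8.99% of all genes. In the promoters of NFKB2, REL, CXCL1, CXCL2 and CXCL3, matches on opposite strands overlapped and were counted as separate matches. A match describes the letters of this window only, and 7 members (NFKBIE, RELB, CXCL16, CCL2, CSF1, LIF and SOCS2) were not searched. The promoters printed here belong to the 3 members with the steadiest calls among those with an entry (NFKBIA, TNFAIP3 and IRF1), to BCL3, whose match lies just after the start, and to CXCL1, a chemokine high in BT-549. Capitals mark kappaB and STAT matches, each sequence runs 5′ to 3′ on the gene's strand, and the coordinates are chr14:35404700-35404999 (minus strand), chr6:137867009-137867308 (plus), chr5:132490724-132491023 (minus), chr19:44748458-44748757 (plus) and chr4:73869143-73869442 (plus), in the order printed.
NFKBIA: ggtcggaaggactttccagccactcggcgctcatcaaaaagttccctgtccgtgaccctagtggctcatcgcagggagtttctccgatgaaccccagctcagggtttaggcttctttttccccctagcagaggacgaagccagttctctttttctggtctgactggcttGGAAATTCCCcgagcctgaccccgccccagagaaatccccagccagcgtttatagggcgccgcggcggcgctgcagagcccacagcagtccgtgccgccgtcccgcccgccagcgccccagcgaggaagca
TNFAIP3: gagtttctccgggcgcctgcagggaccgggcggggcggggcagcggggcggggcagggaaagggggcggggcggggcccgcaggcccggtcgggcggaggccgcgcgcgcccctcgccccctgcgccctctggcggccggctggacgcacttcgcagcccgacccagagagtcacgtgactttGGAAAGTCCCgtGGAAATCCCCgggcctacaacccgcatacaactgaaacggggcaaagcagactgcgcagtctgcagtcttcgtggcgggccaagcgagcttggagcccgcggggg
IRF1: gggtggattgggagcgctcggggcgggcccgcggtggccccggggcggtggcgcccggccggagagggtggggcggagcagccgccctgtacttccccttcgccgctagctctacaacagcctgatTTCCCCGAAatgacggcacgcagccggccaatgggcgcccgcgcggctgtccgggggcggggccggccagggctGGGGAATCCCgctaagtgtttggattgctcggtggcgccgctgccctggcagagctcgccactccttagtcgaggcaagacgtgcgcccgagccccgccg
BCL3: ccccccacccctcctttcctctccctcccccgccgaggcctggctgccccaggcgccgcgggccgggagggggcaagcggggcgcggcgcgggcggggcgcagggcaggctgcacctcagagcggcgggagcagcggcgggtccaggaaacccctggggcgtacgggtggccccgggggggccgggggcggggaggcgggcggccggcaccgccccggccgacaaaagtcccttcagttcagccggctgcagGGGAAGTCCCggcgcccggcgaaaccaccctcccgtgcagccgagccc
CXCL1: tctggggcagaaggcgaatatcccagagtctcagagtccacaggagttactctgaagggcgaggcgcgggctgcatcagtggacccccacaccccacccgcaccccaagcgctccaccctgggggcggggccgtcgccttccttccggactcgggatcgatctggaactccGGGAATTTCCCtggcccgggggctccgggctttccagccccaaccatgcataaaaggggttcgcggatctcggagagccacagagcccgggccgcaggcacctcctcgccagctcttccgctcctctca

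In NFKBIA 1 decamer began at position -81 from the annotated start, and in TNFAIP3 matches began at -67 and -55. The IRF1 promoter was the only one of the members' promoters with both motifs, a STAT element from -124 and a kappaB decamer from -50. In BCL3 the decamer began at position 3, after the start, and in CXCL1 the overlapping pair began at -79 and -78. The matches of the CXCL1, CXCL2, CXCL3 and CCL20 promoters began within a few bases of each other, between -79 and -77.

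**Figure D1:**
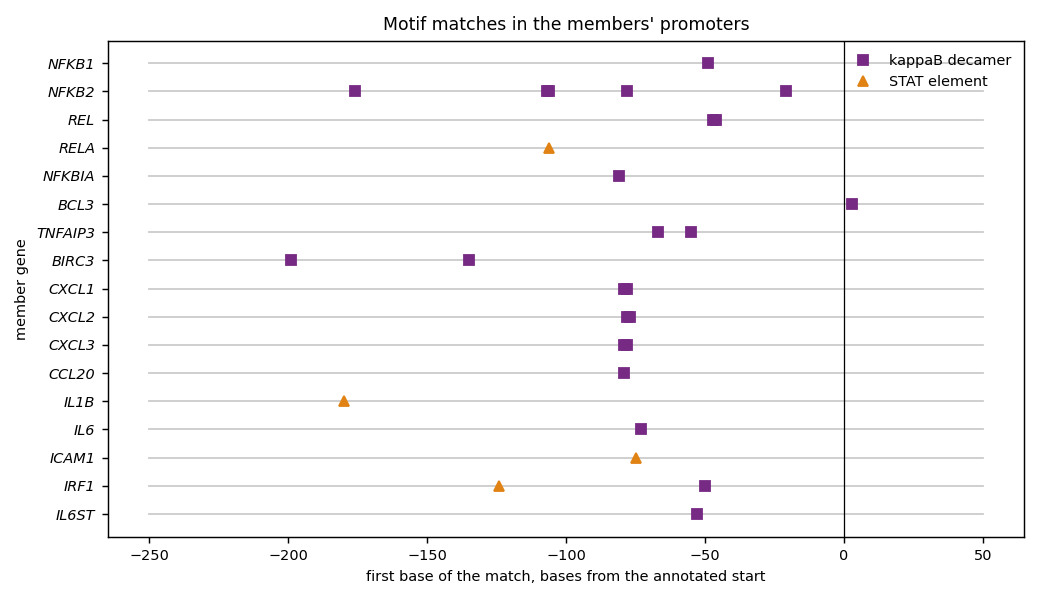
Position of the first base of each kappaB decamer (squares) and STAT element (triangles) in the members' promoters, in bases from the annotated start, drawn for the members with at least 1 match and, where a gene has several annotated starts, from the match's own start. Overlapping matches on opposite strands appear as touching squares, and the kappaB matches of CXCL1, CXCL2, CXCL3 and CCL20 lie between -79 and -77.

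The deposited values put every array near a common mean of 326 to 343 intensity units, so changes are relative to the array's total, while the 75th percentile of an array ranged from 140.3 to 231. Replicate arrays correlated at r = 0.991 to 0.993 on the log2 scale over probe sets, which are not independent replicates. 1 field of the labels names MDA-MB-468 for both ER+ lines, whose titles name ZR-75-1 and T47D. With DMSO, ESR1, the oestrogen receptor, averaged 30.9 ± 2.48 in MDA-MB-468, against 442 ± 9.32 (SD, n = 2 each) in ZR-75-1 and 906 ± 30.4 in T47D cells. VIM, a mesenchymal marker, read 14442 on the BT-549 DMSO array. PTPRC, which marks all leukocytes, lay below background on every array. Of the markers of other cell types, 1 to 4 of 5 lymphocyte, 2 to 4 of 5 myeloid, 0 to 2 of 3 pan-leukocyte and 3 of 3 endothelial genes lay above background in a group. Their summed intensity ranged from 157 to 249 for lymphocytes, 158 to 457 for myeloid cells, 51.1 to 389 for leukocytes and 124 to 173 for endothelial cells. Their part in the members' values was not tested.

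Of the 33 members, 32 had a probe set assigned to that gene alone and 29 were kept, because the highest group mean reached an intensity of 57.4. BIRC3, an inhibitor of apoptosis, had no such probe set, and IL1A, IL6 and PTGS2, which encode interleukin 1 alpha, interleukin 6 and cyclooxygenase 2, stayed below the filter. IL1A read 22.0 to 39.0, IL6 read 30.3 to 49.2 and PTGS2 read 14.4 to 28.7 over the 21 arrays. Another 5 members (TRAF1, CXCL2, CXCL3, CCL2 and IL1B) passed the filter only through BT-549, the line without a test. Between 25 and 31 of the members lay above the background probe sets on an array. In these bulk samples a lower value cannot tell less RNA per cell from fewer cells that make it. A gene was called at a limma adjusted p under 0.05, with Benjamini-Hochberg adjustment over 12644 genes. Nothing in the labels says that the 2 arrays of a group came from separate cultures, so p-values measure only the spread between these samples.

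At 250 nM THZ1, 15 of the 29 members tested were lower in MDA-MB-468 (51.7%), against 30.3 percent of all genes tested. 1 member, STAT3, was higher, against 9.54 percent of all genes. In ZR-75-1, 13 of 29 were lower (44.8%) and none was higher, against 42.8 percent and 9.93 percent of all genes, so the share of lower members was near the background. In T47D, 9 of 29 were lower (31.0%) and 3 were higher (10.3%), against 33.7 percent and 9.61 percent of all genes, again near the background. With each array centred on its median the split of lower and higher members was 11 and 2 in MDA-MB-468, 11 and 5 in ZR-75-1 and 7 and 5 in T47D, and with quantile normalization 11 and 3, 11 and 5, and 7 and 6. Of all genes, 21.5 percent were lower and 27.3 percent higher in MDA-MB-468 with centring, 31.2 and 28.4 percent in ZR-75-1, and 25.7 and 19.2 percent in T47D. With quantile normalization these shares were 22.5 and 24.2 percent, 30.2 and 32.8 percent, and 23.8 and 26.3 percent. The median change of the 29 members was -0.47 in MDA-MB-468, -0.22 in ZR-75-1 and 0.01 in T47D, while the median over all genes was -0.07, -0.18 and -0.08 on the log2 scale. 7 members were lower in each of these 3 lines: the subunit genes REL and RELA, the inhibitor and feedback genes NFKBIA, NFKBIE, BCL3 and TNFAIP3, and the transcription factor gene IRF1. That is 24.1% of the 29, against 23.0 percent of all genes lower in each line, so it does not set the members apart from other genes.

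**Figure D2:**
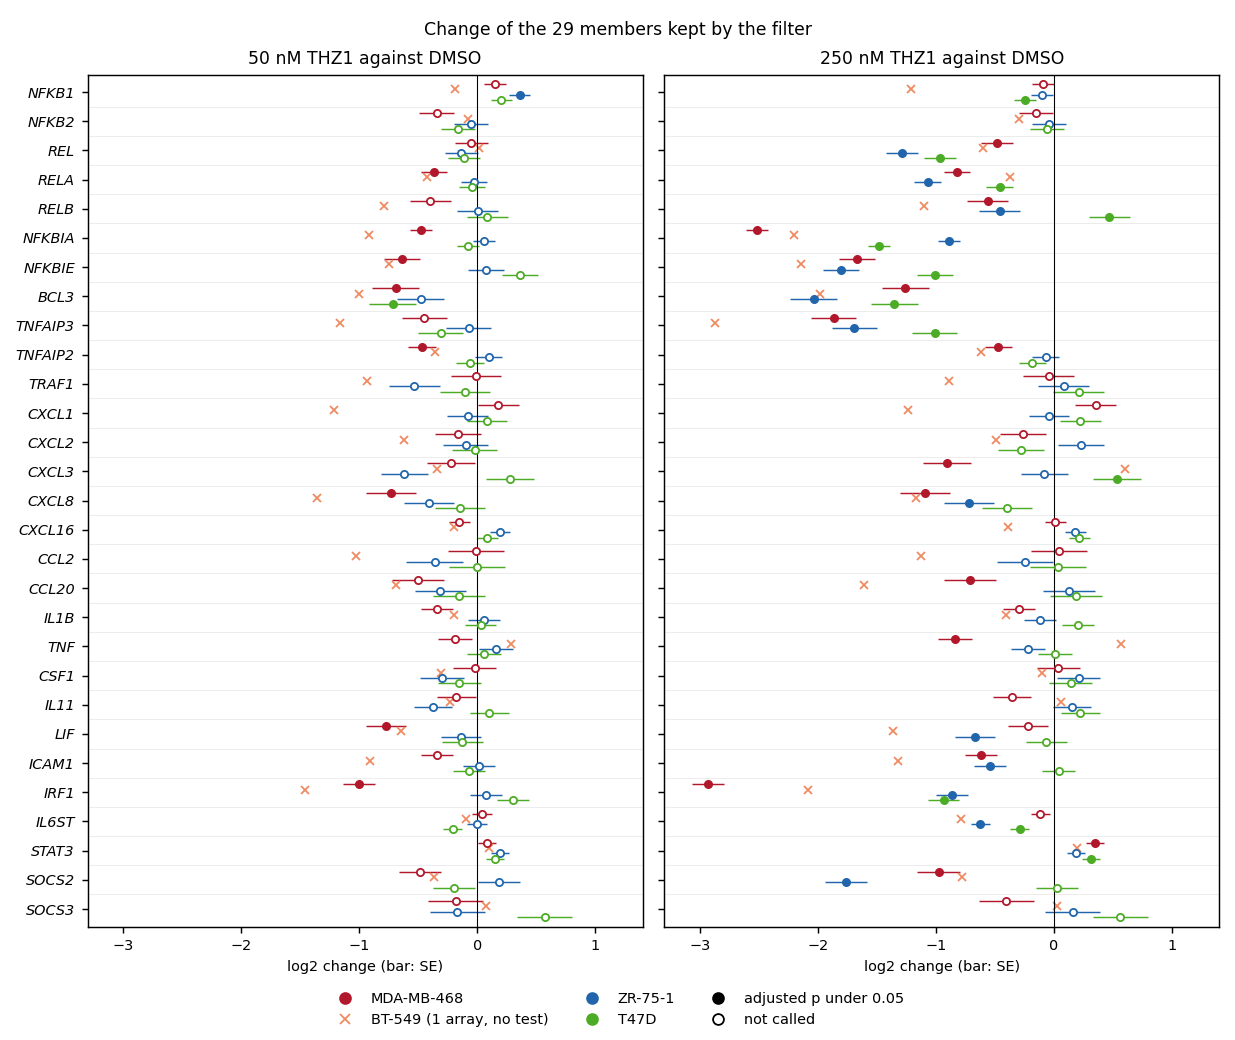
Log2 change of each of the 29 members kept by the filter at 50 nM (left) and 250 nM (right) against DMSO. Circles are limma estimates with their SE for the lines with 2 arrays per dose, filled where the limma adjusted p was under 0.05, and crosses are single-array differences in BT-549. At 250 nM the lowest circles are IRF1 and NFKBIA in MDA-MB-468, at -2.93 and -2.52, and the lowest cross is TNFAIP3 in BT-549, at -2.88.

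Among the inhibitors and feedback genes, 4 of the 6 kept (NFKBIA, NFKBIE, TNFAIP3 and BCL3) fell in each of the 3 lines with replicates. Of all genes, 23.0 percent were lower in each line, and the BCL3 calls rest on its brightest probe set alone. NFKBIA read 438 and 444 in MDA-MB-468 with DMSO, 303 and 332 at 50 nM, and 83.7 and 70.7 at 250 nM. In ZR-75-1 it read 1508 and 1642 with DMSO, 1699 and 1579.5 at 50 nM, and 898 and 806 at 250 nM. In T47D it read 774 and 716 with DMSO, 703 and 709 at 50 nM, and 247 and 288 at 250 nM. In each of these lines both arrays at 250 nM lay below both DMSO arrays, and only in MDA-MB-468 did both 50 nM arrays also lie below them by more than the gap between the DMSO arrays. The log2 change at 250 nM was -2.52 ± 0.09 in MDA-MB-468 (SE, limma adjusted p = 6.08e-12), -0.89 ± 0.09 in ZR-75-1 and -1.48 ± 0.09 in T47D, which are falls of 5.73-fold, 1.85-fold and 2.79-fold. The other 2 probe sets of NFKBIA gave log2 changes of -2.36 and -2.11 in MDA-MB-468, -1.0 and -0.89 in ZR-75-1, and -1.35 and -1.28 in T47D.

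NFKBIE encodes IkB-epsilon, a second inhibitor that holds NF-kB dimers in the cytoplasm. It read 283 and 274 in MDA-MB-468 with DMSO, 183 and 174 at 50 nM, and 90.2 and 85.2 at 250 nM. It read 204 and 196 in ZR-75-1 with DMSO, 237 and 188 at 50 nM, and 54.5 and 60.2 at 250 nM. In T47D the values were 224 and 203 with DMSO, 276 and 273 at 50 nM, and 85.7 and 132 at 250 nM. The groups did not overlap between 250 nM and DMSO in any of the 3 lines, and in T47D the 50 nM arrays lay above the DMSO arrays without a call. The falls at 250 nM were 3.17-fold in MDA-MB-468, 3.49-fold in ZR-75-1 and 2.01-fold in T47D, with log2 changes of -1.67 ± 0.15, -1.80 ± 0.15 and -1.0 ± 0.15 (SE) and limma adjusted p-values of 1.83e-07, 3.74e-08 and 5.37e-05.

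TNFAIP3 encodes A20, a ubiquitin-editing enzyme that shuts off signalling from the TNF receptor. Its intensity in MDA-MB-468 was 84.0 and 74.4 with DMSO, 55.9 and 59.9 at 50 nM, and 21.6 and 21.8 at 250 nM, where neither array lay above background. The fall there was at least 2.83-fold, against the background level (limma adjusted p = 6.33e-07). In ZR-75-1 the values were 137 and 141 with DMSO, 149.5 and 118 at 50 nM, and 54.7 and 34.1 at 250 nM, a log2 change of -1.69 ± 0.19 at 250 nM (SE, limma adjusted p = 1.10e-06). In T47D they were 58.5 and 56.2 with DMSO, 42.8 and 50.2 at 50 nM, and 25.4 and 31.8 at 250 nM, where 1 of the 2 arrays lay above background, with a log2 change of -1.01 ± 0.19 (limma adjusted p = 0.000403). Arrays at 250 nM and with DMSO did not overlap in any of these lines. The second TNFAIP3 probe set gave smaller log2 changes of -0.74, -0.46 and -0.26 in MDA-MB-468, in ZR-75-1 and in T47D.

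BCL3 encodes an IkB-like protein that works in the nucleus with NF-kB dimers rather than holding them outside it. Its values in ZR-75-1 were 354 and 316 with DMSO, 207 and 279 at 50 nM, and 91.6 and 72.8 at 250 nM. In MDA-MB-468 they were 98.5 and 147 with DMSO, 68.0 and 81.9 at 50 nM, and 49.1 and 51.5 at 250 nM, and in T47D 148 and 154, 76.5 and 111, and 57.8 and 60.4 at the same doses. In each of these 3 lines every 50 nM array lay below both DMSO arrays and every 250 nM array below both 50 nM arrays. The log2 change at 250 nM was -2.04 ± 0.20 in ZR-75-1, -1.26 ± 0.20 in MDA-MB-468 and -1.35 ± 0.20 in T47D (SE, all called by limma). The other 3 probe sets of BCL3 lay between -0.14 and 0.41 at 250 nM and none was called, and the mean of the 4 probe sets ended the call in MDA-MB-468 (-0.10) and T47D (-0.13).

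Of the remaining feedback genes, 1 was called at 250 nM and in MDA-MB-468 alone. TNFAIP2, a gene induced by TNF, read 155 and 160.0 in MDA-MB-468 with DMSO, 114 and 114 at 50 nM, and 118 and 109 at 250 nM. Its log2 change of -0.47 ± 0.12 (SE, limma adjusted p = 0.00351 at 250 nM) was the same size at both doses and was not called with centring or quantile normalization at either dose, and the other 4 TNFAIP2 probe sets lay between -0.33 and 0.09 there at 250 nM and were not called. In ZR-75-1 and T47D the log2 change at 250 nM was -0.07 and -0.18 and did not pass. TRAF1, a TNF receptor adaptor, was not called at 250 nM against DMSO in any of the 3 lines, with log2 changes of -0.05, 0.08 and 0.21.

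**Figure D3:**
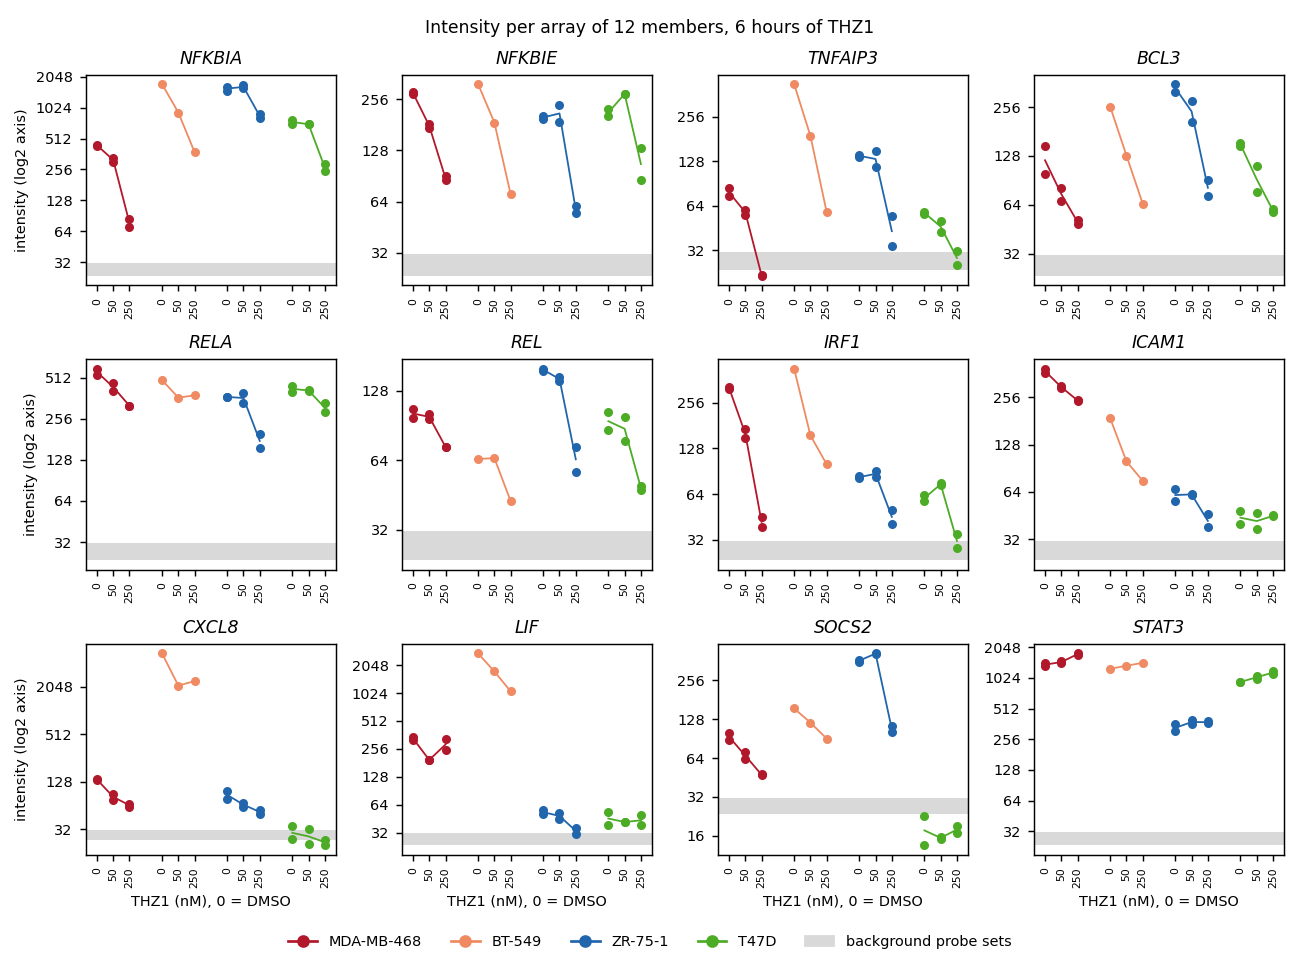
Intensity on each array (log2 axis) of 12 members at 0 (DMSO), 50 and 250 nM THZ1, coloured by line, with lines joining the geometric means and a grey band for the range of the background probe sets. NFKBIA, NFKBIE, TNFAIP3 and BCL3 are lower at 250 nM than with DMSO in all 4 lines, whereas STAT3 is not lower at 250 nM in any. Each gene is drawn from its brightest probe set, and the other BCL3 probe sets were not called at 250 nM.

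Among the REL subunits, REL and RELA fell at 250 nM in all 3 lines with replicates. RELA encodes p65, the subunit with the strongest activation domain, and read 319 and 317 at 250 nM against 534 and 594 with DMSO in MDA-MB-468. In ZR-75-1 it read 197 and 157 at 250 nM against 368 and 372 with DMSO, and in T47D 286 and 332 against 444 and 404. The treated arrays lay below the DMSO arrays in each line. The log2 change was -0.82 ± 0.11, -1.07 ± 0.11 and -0.46 ± 0.11 in these 3 lines (SE, limma adjusted p = 1.62e-05, 4.74e-07 and 0.00326). The 2 weaker RELA probe sets gave -0.35 and -0.45 in MDA-MB-468, -0.30 and -0.30 in ZR-75-1, and -0.18 and -0.07 in T47D, of which the -0.45 was called. The T47D call was lost with quantile normalization (-0.19) and without the first 250 nM array.

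REL encodes c-Rel, a subunit known best from lymphocytes. It read 72.9 and 57.1 at 250 nM against 159 and 156 with DMSO in ZR-75-1, a log2 change of -1.29 ± 0.14 (SE, limma adjusted p = 5.22e-07). In T47D it read 49.4 and 47.3 against 86.1 and 104, a change of -0.97, and in MDA-MB-468 73.0 and 73.1 against 107 and 97.3, a change of -0.48. The MDA-MB-468 call was lost with centring (-0.28), with quantile normalization (-0.20) and without the first DMSO array. The second probe set of REL gave -1.27, -1.33 and -0.64 in ZR-75-1, in T47D and in MDA-MB-468, all called. RELB, the activating subunit of the non-canonical pathway, was lower in MDA-MB-468 (-0.56 ± 0.17) and ZR-75-1 (-0.46 ± 0.17) and higher in T47D (0.47 ± 0.17, limma adjusted p = 0.0390). The MDA-MB-468 call was lost with centring (-0.36), with quantile normalization (-0.24), and without either DMSO array or the second 250 nM array. The ZR-75-1 call was lost under the same scalings (-0.21 and -0.10) and without either DMSO array or the first 250 nM array. The T47D call was lost without the first DMSO array (0.36) and without either 250 nM array (0.47 each). Its values in T47D were 81.0 and 81.2 at 250 nM against 54.3 and 63.2 with DMSO, while the 50 nM arrays read 48.7 and 79.5.

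NFKB1 and NFKB2 encode the p105 and p100 precursors, which are processed to p50 and p52. NFKB1 at 250 nM was called in T47D alone of the 3 lines, at 231 and 227 against 254 and 289.7 with DMSO, a log2 change of -0.25 ± 0.09 (SE, limma adjusted p = 0.0397). That call was lost with each array centred on its median (-0.12) and the sign turned with quantile normalization (0.06). It was also lost without the filter, without the second DMSO array (-0.15), without either 250 nM array, and without either MDA-MB-468 array at 50 nM. NFKB2 changed by -0.15, -0.04 and -0.06 at 250 nM in MDA-MB-468, in ZR-75-1 and in T47D and was not called.

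IRF1, a transcription factor induced by interferon gamma and by NF-kB, had the most negative change of the 29 members in MDA-MB-468. It read 326 and 315 in MDA-MB-468 with DMSO, 149.8 and 171 at 50 nM, and 45.4 and 39.1 at 250 nM. In ZR-75-1 it read 84.2 and 81.5 with DMSO, 91.0 and 83.3 at 50 nM, and 50.6 and 40.8 at 250 nM, and in T47D 57.8 and 63.0, 73.4 and 75.4, and 28.4 and 35.0. The 250 nM arrays lay below the DMSO arrays in all 3 lines, and the 50 nM arrays did so in MDA-MB-468 alone. The log2 change at 250 nM was -2.93 ± 0.13 in MDA-MB-468, a fall of 7.61-fold (SE, limma adjusted p = 6.01e-11), and -0.87 ± 0.13 and -0.94 ± 0.13 in ZR-75-1 and T47D. The other 3 IRF1 probe sets gave -1.40, -1.94 and 0.21 in MDA-MB-468, -0.12, -0.62 and -0.17 in ZR-75-1, and -0.18, -0.09 and 0.15 in T47D, where none of the 3 was called, so the size in T47D rests on 1 probe set. With the mean of the 4 probe sets the change was -1.52, -0.44 and -0.26 in these lines and still called. ICAM1, the adhesion molecule that binds leukocyte integrins, read 246 and 242 at 250 nM against 362 and 388 with DMSO in MDA-MB-468, a log2 change of -0.62 ± 0.14 (SE, limma adjusted p = 0.00161). In ZR-75-1 it read 38.1 and 46.1 against 55.8 and 66.9 (-0.55 ± 0.14, lost with centring), and in T47D 45.4 and 44.7 against 40.0 and 48.2, which overlapped.

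Chemokine and cytokine members were called less evenly. CXCL8 encodes interleukin 8, which attracts neutrophils. In MDA-MB-468 it read 140.0 and 134 with DMSO, 90.6 and 74.7 at 50 nM, and 61.4 and 67.3 at 250 nM, a log2 change of -1.09 ± 0.21 at 250 nM (SE, limma adjusted p = 0.000577). In ZR-75-1 it read 56.8 and 49.3 at 250 nM against 96.9 and 78.3 with DMSO (-0.72 ± 0.21), a call lost with quantile normalization and without the first DMSO or the second 250 nM array, and in T47D neither 250 nM array lay above background. CCL20, which attracts cells bearing CCR6, was called in MDA-MB-468 alone, at 66.4 and 62.1 against 104 and 106, a change of -0.71 ± 0.22 (limma adjusted p = 0.0156). That call was lost with centring (-0.51), with quantile normalization (-0.44), and without either DMSO array or the second 250 nM array. CXCL3, another neutrophil chemokine, read 25.2 and 22.1 at 250 nM in MDA-MB-468, neither above background, against 41.3 and 47.4 with DMSO, so the fall was at least 1.58-fold (limma adjusted p = 0.0017). Its call in T47D (0.53) rests on 23.7 and 22.6 against 18.9 and 13.5, none of which lay above background. CXCL2, CXCL16 and CCL2 were not called at 250 nM in any of the 3 lines, and CCL2 lay below background on all of their arrays.

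CXCL1, also a neutrophil chemokine, gave different answers by probe set. The brighter one, used here, changed by 0.35 ± 0.17 at 250 nM in MDA-MB-468 and was not called. The other changed by -1.03 ± 0.21 with a limma adjusted p of 0.00119 over all probe sets. A further probe set is annotated to both CXCL1 and CXCL2 and was used for neither.

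Of the cytokines, TNF was lower in MDA-MB-468 at 250 nM, at 24.0 and 29.3 against 44.3 and 50.7 with DMSO, a log2 change of -0.84 ± 0.14 (SE, limma adjusted p = 0.000196), with 1 of the 2 treated arrays above background. LIF encodes leukaemia inhibitory factor, a ligand of the IL6ST receptor chain that acts through STAT3. In MDA-MB-468 it read 348 and 318 with DMSO, 196 and 193 at 50 nM, and 328 and 248 at 250 nM, so the 50 nM arrays were the lowest and the 250 nM arrays overlapped the DMSO range. The log2 change was -0.77 ± 0.17 at 50 nM (limma adjusted p = 0.00435) and 0.55 ± 0.17 between 250 and 50 nM (limma adjusted p = 0.0223). In ZR-75-1 LIF read 31.1 and 35.8 at 250 nM against 56.0 and 50.5 with DMSO (-0.67 ± 0.17), a call lost with the mean of its probe sets (-0.25). IL1B, CSF1 and IL11, which encode interleukin 1 beta, the macrophage growth factor and interleukin 11, were not called at 250 nM against DMSO, with changes between -0.36 and 0.22 in the 3 lines.

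In the STAT3 arm, STAT3 itself was higher at 250 nM in MDA-MB-468 and in T47D and was not called in ZR-75-1. It read 1779 and 1720.3 at 250 nM against 1434 and 1325 with DMSO in MDA-MB-468, a log2 change of 0.34 ± 0.08 (SE, limma adjusted p = 0.00167). In T47D it read 1192 and 1120.0 against 942 and 924 (0.31 ± 0.08, limma adjusted p = 0.00364), and in ZR-75-1 386 and 367 against 358 and 307 (0.19 ± 0.08, not called). IL6ST encodes gp130, the shared receptor chain. It was lower at 250 nM in ZR-75-1, at 489 and 398 against 647 and 714 with DMSO (-0.62 ± 0.08, limma adjusted p = 7.05e-06), and in T47D, at 2282 and 2521 against 2931 and 2939 (-0.29 ± 0.08). With the mean of its 8 probe sets the IL6ST change was -0.07 in ZR-75-1 and -0.13 in T47D and was not called.

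SOCS2, an inhibitor of cytokine receptor signalling, was lower in ZR-75-1 and MDA-MB-468. In ZR-75-1 it read 358 and 371 with DMSO, 415 and 412 at 50 nM, and 113 and 102 at 250 nM, a log2 change of -1.76 ± 0.18 at 250 nM (SE, limma adjusted p = 3.16e-07). In MDA-MB-468 it read 47.1 and 48.2 at 250 nM against 99.4 and 88.5 with DMSO (-0.98 ± 0.18), and in T47D no array of any dose lay above background. SOCS3, the feedback inhibitor of STAT3 signalling, was not called in any of the 3 lines, with changes of -0.41, 0.16 and 0.56 in MDA-MB-468, in ZR-75-1 and in T47D.

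At 50 nM THZ1 the calls were mostly in MDA-MB-468. There 8 of 29 members were lower (27.6%) and none was higher, against 14.6 percent and 4.42 percent of all genes. The 8 were RELA, NFKBIA, NFKBIE, BCL3, TNFAIP2, CXCL8, LIF and IRF1. Only NFKBIA, LIF and IRF1 kept their call under every alternative. The call was lost under 5 of 23 for TNFAIP2, and of 24 under 4 for BCL3, 4 for CXCL8, 3 for RELA and 1 for NFKBIE. IRF1 had the most negative change, -1.0 ± 0.13 or 2.0-fold (SE, limma adjusted p = 7.34e-05), NFKBIE changed by -0.64 ± 0.15 and NFKBIA by -0.47 ± 0.09. The count of 8 was 4 without the second DMSO array and 5 without either 50 nM array of MDA-MB-468. In ZR-75-1 no member was lower and 1 was higher at 50 nM, against 5.68 percent and 2.79 percent of all genes. The higher one was NFKB1, at 693 and 665 against 575 and 488 with DMSO, a log2 change of 0.36 ± 0.09 (limma adjusted p = 0.0226), a call that was lost without the second DMSO array (0.24) and without either 50 nM array (0.33 and 0.39). In T47D 1 member, BCL3, was lower at 50 nM (-0.71 ± 0.20, limma adjusted p = 0.0338) and none was higher, against 7.56 percent and 1.99 percent of all genes. The BCL3 call was lost with quantile normalization, with the mean of its probe sets, and without either DMSO array or the first 50 nM array, so leaving out 1 of these arrays took the count in T47D to 0.

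Between the doses, 9 members were lower and 2 higher at 250 than at 50 nM in MDA-MB-468, against 23.2 percent and 5.73 percent of all genes. The 9 were REL, RELA, NFKBIA, NFKBIE, BCL3, TNFAIP3, CXCL3, TNF and IRF1, and the 2 were LIF and STAT3. Without the second 50 nM array 5 were lower and none was higher, and none was higher without the first 50 nM or the first 250 nM array. NFKBIA was a further 4.12-fold lower and IRF1 3.80-fold lower at 250 than at 50 nM. In ZR-75-1, 14 were lower and 4 higher, against 41.7 percent and 6.64 percent of all genes. The higher ones were TRAF1, CXCL3, CSF1 and IL11, with log2 changes of 0.61, 0.53, 0.51 and 0.53, and CXCL3 lay below background at both doses. TRAF1 lay above background on 1 of 2 arrays at 50 nM, and its change ranged from 0.02 to 0.84 over the alternatives. In T47D, 8 were lower and none was higher, against 27.2 percent and 4.59 percent of all genes. The 4 higher in ZR-75-1 became 1 or 2 when any 1 of its 50 or 250 nM arrays was left out, and the 8 in T47D became 5 without its first 250 nM array. Those 8 were NFKB1 and the 7 members named as lower in all 3 lines at 250 nM.

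The size of the 250 nM change was compared between lines in the same limma fit, taking MDA-MB-468 minus the average of both ER+ lines. The change was more negative in MDA-MB-468 for 5 of 29 members and more positive for 2, against 5.12 percent and 13.9 percent of all genes. IRF1 differed by -2.03 ± 0.16 and NFKBIA by -1.33 ± 0.12 (SE, limma adjusted p = 1.06e-06 and 1.79e-06). With DMSO, IRF1 read 84.2 and 81.5 in ZR-75-1 and 57.8 and 63.0 in T47D, against 326 and 315 in MDA-MB-468. At 250 nM the ZR-75-1 arrays read 50.6 and 40.8 for IRF1, above background at 28.2 and 31.4. The T47D arrays read 28.4 and 35.0, with background at 28.3 on both. Whether the lower starting levels bear on the IRF1 difference was not tested. CXCL3 differed by -1.13, CCL20 by -0.87 and TNF by -0.73. CXCL3 lay below background on every ER+ array and on both MDA-MB-468 arrays at 250 nM. In T47D, CCL20 lay above background on 1 of 2 arrays with DMSO and on 1 of 2 at 250 nM. The CCL20 call was lost under 8 of the 24 alternatives, each leaving out 1 array (between -1.04 and -0.70 over all 24), and the TNF call under 1, without the first MDA-MB-468 array at 250 nM. The difference was positive for REL (0.65) and IL6ST (0.34). Neither positive call was left without the second MDA-MB-468 DMSO array, and 1 was left without the first DMSO array, either 250 nM array of MDA-MB-468, the second ZR-75-1 DMSO array or the first T47D array at 250 nM. The other 22 members, among them NFKBIE (-0.26 ± 0.19), BCL3 (0.43 ± 0.24) and TNFAIP3 (-0.51 ± 0.23), did not pass that test, which does not show that they responded alike.

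The same comparison at 50 nM, added after the data were seen, gave 3 members with a more negative change in MDA-MB-468 and none with a more positive one, against 2.48 percent and 0.403 percent of all genes. The 3 were IRF1 (-1.19 ± 0.16, limma adjusted p = 0.00116), NFKBIE (-0.86 ± 0.19) and NFKBIA (-0.47 ± 0.12), and leaving out any of the 4 MDA-MB-468 arrays at 50 nM or with DMSO left 1 call. Between the ER+ lines at 250 nM, the change was more negative in ZR-75-1 than in T47D for 5 members and more positive for 1, against 19.8 percent and 2.44 percent of all genes. SOCS2 (-1.79), RELB (-0.93), NFKBIE (-0.80), RELA (-0.61) and ICAM1 (-0.58) were the 5, and NFKBIA (0.59) was the other. Of 24 alternatives, 13 ended the ICAM1 call, 5 the RELA call, 2 the NFKBIE call and 1 the RELB call. SOCS2 and NFKBIA kept theirs under every one. The 5 became 3 without the first T47D DMSO array and 2 without the second T47D array at 250 nM. SOCS2 lay below background in T47D at every dose, so its difference compares a measured fall with an unmeasured level.

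**Figure D4:**
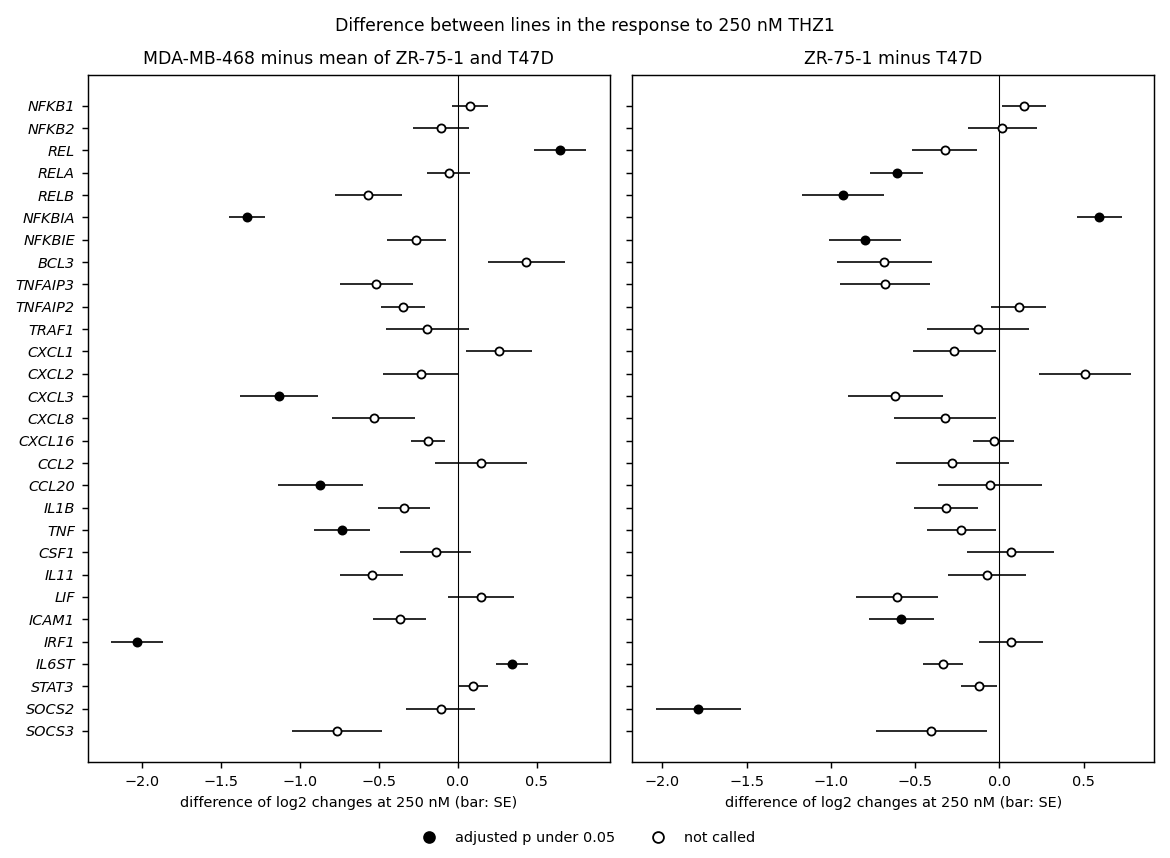
Difference between lines in the log2 change at 250 nM, for MDA-MB-468 minus the mean of ZR-75-1 and T47D (left) and for ZR-75-1 minus T47D (right), with the SE and filled circles at a limma adjusted p under 0.05. IRF1 at -2.03 and NFKBIA at -1.33 lie farthest to the left on the left side, and SOCS2 at -1.79 on the right side.

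BT-549 was read on 1 array per dose and has no test. At 250 nM, 13 of the 29 members were lower by at least 2-fold and none was higher by as much, against 8.94 percent and 0.182 percent of all genes. At 50 nM, 5 were lower and none higher by that much, against 3.24 percent and 0.174 percent. The median difference of the 29 members was -0.79 at 250 nM and -0.43 at 50 nM on the log2 scale, while that of all genes was 0.01 and -0.04. The 5 at 50 nM were TNFAIP3, CXCL1, CXCL8, CCL2 and IRF1. These counts and medians include the 5 members that passed the filter only through BT-549, of which CCL2 is among the 13 and the 5. Over the 24 members that pass without BT-549, a count added after the data were seen, 12 were lower by at least 2-fold at 250 nM and 4 at 50 nM, against 8.91 percent and 3.19 percent of the genes that pass in the same way, with medians of -0.95 and -0.40.

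TNFAIP3 in BT-549 read 425 with DMSO, 190.0 at 50 nM and 58.0 at 250 nM, a difference of 7.34-fold between 250 nM and DMSO. NFKBIA read 1741, 920.2 and 378 at these doses, NFKBIE 313, 186 and 70.7, BCL3 257, 129 and 65.1, and IRF1 427, 156 and 101. These 5 genes stepped down at each dose. CCL20 read 286, 178 and 93.7, LIF 2745, 1752 and 1069, and ICAM1 188, 100.1 and 75.2, which step down in the same order. CXCL8 read 5392 with DMSO, 2107 at 50 nM and 2400.3 at 250 nM, and CXCL1 1979, 854 and 839, so most of their difference was present at 50 nM. NFKB1 (1429.9, 1252 and 616), RELB (270.0, 156 and 125) and CCL2 (188, 92.3 and 86.1) complete the 13 at 250 nM. CXCL3 went the other way at the top dose, reading 228, 181 and 346, and TNF read 28.7, 35.0 and 42.5, a difference of 0.57 at 250 nM on the log2 scale. STAT3 read 1256, 1345 and 1438. All these BT-549 values are from the brightest probe set of each gene alone. Other probe sets of BCL3, TNFAIP3, IRF1 and CXCL1 gave different changes in the lines with replicates.

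The levels with DMSO also differed between the lines. 9 of the 29 members lay at least 2-fold above every other line's DMSO array in BT-549, against 5.01 percent of all genes. They were NFKB1, TNFAIP3, CXCL1, CXCL2, CXCL3, CXCL8, CCL2, CCL20 and LIF. CXCL2, CXCL3 and CCL2 passed the filter only through BT-549, so their place among the 9 follows in part from the filter. Both 9 of 29 and 5.01 percent are shares of lists that include genes kept only through BT-549, and were not recounted without them. Among members that pass without BT-549, CXCL8 was 38.5-fold, CXCL1 21.0-fold and LIF 7.89-fold above the highest DMSO array of the other lines. CXCL2 was 14.3-fold above it. Each of these ratios rests on 1 BT-549 array.

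**Figure D5:**
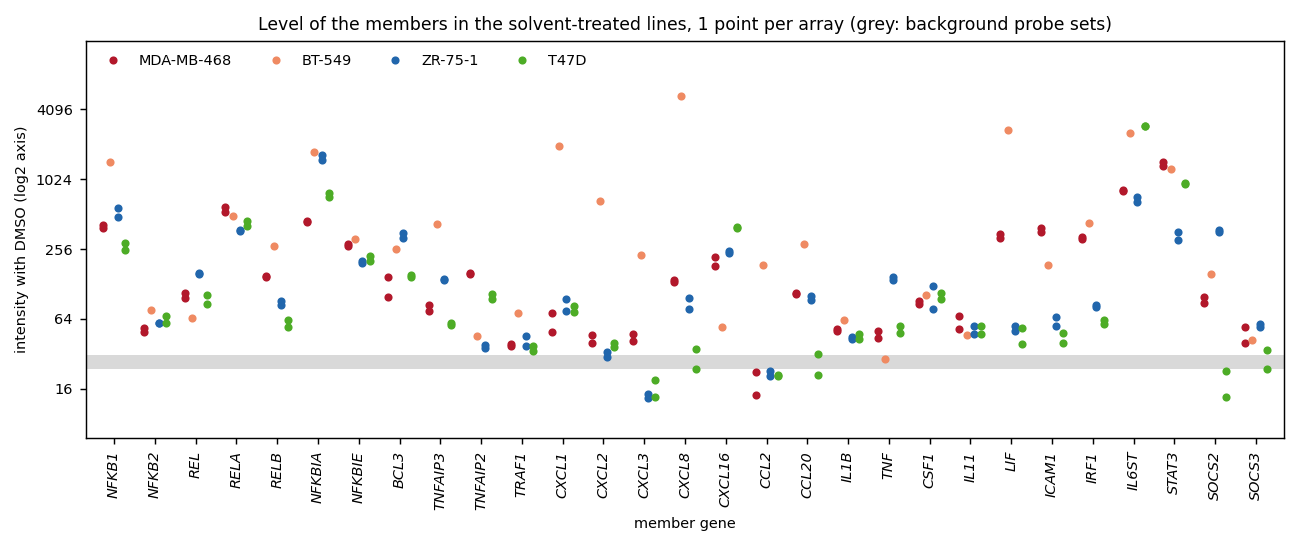
Intensity of the 29 members on each DMSO array (log2 axis), coloured by line, with a grey band for the background probe sets. CXCL8, CXCL1, CXCL2 and LIF in BT-549 lie far above the arrays of the other lines, at 5392, 1979, 669.8 and 2745. CXCL2 passed the filter only through BT-549.

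With DMSO, 11 of 29 members were higher and 6 lower in MDA-MB-468 than the average of both ER+ lines, against 33.1 percent and 34.4 percent of all genes, so the share of higher members was near the background and that of lower members under it. ICAM1 read 362 and 388 in MDA-MB-468 against 55.8 and 66.9 in ZR-75-1 and 40.0 and 48.2 in T47D, higher by 2.85 ± 0.12 on the log2 scale (SE), with a limma adjusted p of 3.72e-12. LIF (2.76 ± 0.15), IRF1 (2.18 ± 0.12), CXCL8 (1.45), TNFAIP2 (1.37), STAT3 (1.31), CCL20 (1.07), RELB (1.04), RELA (0.51) and NFKBIE (0.43) were also higher, as was CXCL3, at least 1.67-fold against the background level, since it lay below background on every DMSO array of both ER+ lines. NFKBIA was lower in MDA-MB-468 by 1.30 on the log2 scale, BCL3 by 0.90, TNF by 0.86, IL6ST by 0.79, CXCL16 by 0.62 and CXCL1 by 0.43. The CXCL1 direction depends on the probe set, since the other one gave 1.37. The average hides differences between the ER+ lines. IL6ST read 805 and 825 in MDA-MB-468, above 647 and 714 in ZR-75-1 and below 2931 and 2939 in T47D. TNF, at 44.3 and 50.7, overlapped T47D (48.2 and 55.9) and lay below ZR-75-1 (137 and 147). CCL20, at 104 and 106, lay near ZR-75-1 (101 and 93.4) and above T47D (21.1 and 31.8, 1 of 2 above background). IRF1, higher in MDA-MB-468 than in both ER+ lines with DMSO, read 45.4 and 39.1 in MDA-MB-468 at 250 nM against 50.6 and 40.8 in ZR-75-1 and 28.4 and 35.0 in T47D. At that dose the MDA-MB-468 arrays overlapped those of ZR-75-1, and both lay above those of T47D.

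Genes around the members were counted from lists drawn up for the same pathways, also with earlier results of these data known. At 250 nM, 30.3 percent of all genes were lower in MDA-MB-468, 42.8 percent in ZR-75-1 and 33.7 percent in T47D, and 9.54, 9.93 and 9.61 percent were higher. The median log2 change of all genes was -0.07, -0.18 and -0.08 in these lines. Of 16 tested receptor and adaptor genes of the NF-kB pathway, 9 were lower (56.2%) and 1 higher at 250 nM in MDA-MB-468, 12 (75%) and none in ZR-75-1, and 9 (56.2%) and none in T47D. Their median changes were -0.41, -0.78 and -0.39. The genes named from these lists had the largest called changes, and each is given from its brightest probe set alone, without the alternatives. TRAF6, the adaptor of the interleukin 1 receptor and Toll-like receptors, changed by -2.86, -2.43 and -1.97 in MDA-MB-468, in ZR-75-1 and in T47D. TNFRSF1A, the main TNF receptor, changed by -1.28, -2.20 and -0.56, all called. TANK, a TRAF-binding protein, changed by -0.60 (not called), -1.94 and -2.66, with DMSO replicates that differed widely in MDA-MB-468 (636 ± 565, SD, n = 2).

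Of 18 tested genes of the IKK complex and NF-kB regulators, 9, 13 and 10 were lower (50.0%, 72.2% and 55.6%) and none was higher in MDA-MB-468, in ZR-75-1 and in T47D, with medians of -0.29, -0.46 and -0.31. TBK1, an IKK-related kinase, changed by -1.59, -1.94 and -1.19. NFKBIZ, a nuclear IkB-like protein, changed by -1.80, -1.15 and -0.35, and MAP3K14, the NIK kinase of the non-canonical pathway, by -0.98, -0.71 and -0.52, all called. Of 15 other NF-kB targets tested, 6 were lower (40.0%) and 1 higher in MDA-MB-468, 5 (33.3%) and none in ZR-75-1, and 4 (26.7%) and 1 in T47D. The shares of lower genes in ZR-75-1 and T47D were under those of all genes, and the medians were -0.30, 0.01 and 0.12. TNFAIP8, a TNF-induced gene, changed by -1.87, -1.94 and -2.08, GADD45B, a stress-induced gene, by -1.83, -0.99 and -0.55, and CD83 by -0.68, -1.42 and -0.11, the last not called.

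Of 11 tested JAK-STAT receptor, kinase and STAT genes, 1 was lower (9.09%) and 2 higher (18.2%) in MDA-MB-468, 3 (27.3%) and 4 (36.4%) in ZR-75-1, and 2 (18.2%) and 3 (27.3%) in T47D. The shares of lower genes were under those of all genes in each line and the shares of higher genes above them, with medians of 0.0013, -0.01 and 0.20. OSMR, the oncostatin M receptor that pairs with gp130, was higher in all 3 lines, by 0.69, 0.95 and 0.66. LIFR, the LIF receptor chain, changed by -0.95 in ZR-75-1 and was not called in the other two, and STAT5B changed by -0.10 (not called), -0.51 and -0.73. Of 16 tested JAK-STAT inhibitors and STAT3 targets, 11 were lower (68.8%) and none higher in MDA-MB-468, 10 (62.5%) and none in ZR-75-1, and 8 (50.0%) and 2 (12.5%) in T47D, with medians of -0.60, -0.67 and -0.21. CEBPD, a transcription factor induced through STAT3, changed by -2.04, -2.28 and -1.71, BCL6, a transcriptional repressor, by -2.03, -1.80 and -0.93, and SOCS4 by -0.79, -1.76 and -1.85, all called.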

How the data were processed

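The labels describe total RNA primed with oligo(dT), labelled with biotin and hybridised to 3' arrays, with spike-in RNA added by cell number. The authors deposited linear intensity values for 49395 probe sets per array, made with MAS5 per the submitters' processing notes. Its version and scaling target are not given in the sources used here. Spike-in probe sets are not named in the annotation, so no spike-in scaling was applied. Intensities were floored at 1 and put on the log2 scale. The brightest probe set assigned to 1 symbol alone stood for each gene, and the filter asked that at least 1 group average the median of all values, 57.4, which left 12644 of 18132 named genes. limma 3.58.1 in R 4.3.3 fitted 9 groups over 18 arrays and, after empirical Bayes moderation, p-values were adjusted over all genes kept. BT-549, with 1 array per dose, stayed out of the fit. A probe set counted as above background where it exceeded the mean of 23 background probe sets. Alternatives were centring, quantile normalization, no filter, a floor of 16, the mean of probe sets, a replicate block and leaving out each array. The fit was tested on simulated data. The number of arrays limits the precision. Every member was accounted for, and from each other list up to 3 called genes with the largest change at 250 nM in any line were named. The members and lists were chosen with earlier results of these data known.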

Additional observations from a re-analysis of the deposited data

Results flagged for a closer look

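Differences between lines in the response to THZ1 are gathered here, each from the limma test of the difference itself, on the log2 scale. At 250 nM the response of MDA-MB-468 minus the average of both ER+ lines was -2.03 for IRF1, -1.33 for NFKBIA, -1.13 for CXCL3, -0.87 for CCL20 and -0.73 for TNF. It was 0.65 for REL and 0.34 for IL6ST. The IRF1, NFKBIA and CXCL3 differences passed under every alternative run. IRF1 started lower in both ER+ lines, and whether that bears on its difference was not tested. CXCL3 lay below background on every ZR-75-1 and T47D array and on both MDA-MB-468 arrays at 250 nM. Its difference therefore sets a fall known only as a bound against unmeasured levels.

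The change in ZR-75-1 minus that in T47D at 250 nM was -1.79 for SOCS2, -0.93 for RELB, -0.80 for NFKBIE, -0.61 for RELA, -0.58 for ICAM1 and 0.59 for NFKBIA. NFKBIA and SOCS2 passed under every alternative run. SOCS2 was above background in ZR-75-1 and on no T47D array.

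At 50 nM the response of MDA-MB-468 minus the average of both ER+ lines was -1.19 for IRF1, -0.86 for NFKBIE and -0.47 for NFKBIA. IRF1 passed under every alternative run. This 50 nM comparison was added after the data were seen.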

How the results depend on the processing

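Of the called members, 11 of 16 at 250 nM and 3 of 8 at 50 nM in MDA-MB-468, 8 of 13 at 250 nM in ZR-75-1 and 6 of 12 at 250 nM in T47D kept their call under every alternative, NFKBIA, NFKBIE, TNFAIP3 and IRF1 at 250 nM in each of these lines. Centring moved the median change of all genes at 250 nM to 0.14 in MDA-MB-468 and 0.08 in ZR-75-1, against -0.07 and -0.18 as deposited. With centring the members called higher numbered 1 at 50 nM, 2 at 250 nM in MDA-MB-468, 5 in ZR-75-1 and 5 in T47D at 250 nM, and 8 and 1 in these ER+ lines between the doses, while 1 was higher in the MDA-MB-468 difference and 3 lower in the ZR-75-1 minus T47D difference. With quantile normalization the lower members at 50 nM were 5 in MDA-MB-468, 0 in T47D and 3 in BT-549, and 3, 5 and 6 were higher at 250 nM in MDA-MB-468, in ZR-75-1 and in T47D, and 8 and 4 between the doses in ZR-75-1 and in T47D. The mean of probe sets gave 1 and 2 higher between the doses in MDA-MB-468 and in ZR-75-1, 2 higher at 250 nM in ZR-75-1, 0 lower at 50 nM in T47D, 1 higher and 3 lower in the line differences at 250 nM, and 5 lower in that at 50 nM. Deviations of same-numbered arrays correlated between -0.22 and 0.29, highest for MDA-MB-468 with DMSO and at 250 nM, which does not settle whether these arrays were paired. A replicate block gave 1 higher in ZR-75-1 at 250 nM and 8 lower in the MDA-MB-468 difference.

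Signs turned in few cases. The mean of probe sets turned CXCL1 at 250 nM in MDA-MB-468 (-0.34) and with DMSO (0.47), and BCL3 between the doses in MDA-MB-468 (0.075) and T47D (0.046). Quantile normalization turned NFKB1 in T47D at 250 nM (0.062) and, between the doses in ZR-75-1, CXCL16 (0.43), TNF (0.12) and STAT3 (0.37, with centring 0.22). A floor of 16 left CXCL3 there at 0. The cause was not tested.

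Leaving out 1 array at a time gave 4 to 9 lower and 0 higher at 50 nM, 12 to 15 and 1 to 2 at 250 nM, and 5 to 10 and 0 to 2 between the doses in MDA-MB-468. In ZR-75-1 the ranges were 0 lower and 0 to 2 higher, 11 to 13 and 0 to 2, and 11 to 14 and 1 to 4, and in T47D 0 to 1 and 0 to 1, 6 to 10 and 1 to 4, and 5 to 8 and 0 to 1. The MDA-MB-468 difference ranged over 4 to 6 lower and 0 to 2 higher at 250 nM, 1 to 4 and 0 at 50 nM, the ZR-75-1 minus T47D difference over 2 to 6 and 1, and the DMSO difference over 6 to 7 and 10 to 12. Members near background, such as TNFAIP3 and CXCL3 at 250 nM in MDA-MB-468, have only a bound there.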
